A study of Mus musculus with 6 samples.

Results

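The genes examined here encode the subunits of the voltage-gated sodium and calcium channels. They were taken as every array probe, controls left out, whose gene name starts with Scn, a number and the letter a or b (sodium channel subunits) or with Cacna, Cacnb or Cacng (calcium channel subunits). The rule found 63 probes of 40 genes, out of 55681 probes with 34797 gene symbols on the array. In the current RefSeq table Scn2a1 is named Scn2a, and the other symbols are those of the array.

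The arrays measured RNA from the cerebellum of C57BL/6J mouse pups at postnatal day 1 (P1). Their mothers ate an AIN-93G amino acid diet with folic acid (FA) at 2 mg or 20 mg per kg, from a week before mating and throughout pregnancy. Female pups at 2 mg, female pups at 20 mg, male pups at 2 mg and male pups at 20 mg formed 4 groups, and all groups shared the strain and the base diet. Each group at 2 mg was 1 array and each group at 20 mg was 2 arrays, called replicates 1 and 2. A spread between arrays of a group is therefore known at 20 mg alone. Every array held a pool of 3 pups of 1 sex, each pup from another dam, and for the 20 mg groups the labels state that the second RNA extraction came from another batch of pups. The labels name cerebellum in the titles and whole brain in the tissue field.

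Voltage-gated channels open when the membrane depolarizes. Sodium channels, each built of an Scn alpha subunit that forms the pore and of beta subunits that anchor and tune it, carry the upstroke of the action potential, while calcium channels, built of a Cacna1 pore with alpha2delta and beta subunits, turn depolarization into transmitter release and other calcium signals. In the cerebellum the P/Q-type pore Cacna1a is known for its high level in Purkinje cells and for the ataxia that follows its loss, and Scn2a1 and Scn3a are the pores of immature axons and of the fetal brain. Most Cacng genes encode TARPs, auxiliary subunits of AMPA receptors that are named for their likeness to the gamma subunit of the muscle calcium channel.

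On the array each gene is read by 60-base probes, and 16 of the 40 genes have more than 1. The probes below are shown because probes of the same gene gave unlike or opposite differences between the doses, and to set their base composition beside the signal of male 20 mg replicate 2. The first 30 of the 60 bases are printed 5′ to 3′ with G and C in capitals, and the percentage given for each is the G and C content of the whole probe. Positions are those of the array design in mouse build mm9.
Cacna1a, first probe, chr8:87163723-87163782, 45.0% G and C: tttatCatCtCGattGaatCtttCGttttC
Cacna1a, second probe, chr8:87163946-87164005, 35.0% G and C: GtCCtGCttGaaataaCaaaaGaaaaaaGa
Cacna1i, first probe, chr15:80228652-80228711, 50% G and C: ataGaGaaaCCaaGCCGCaCCGCCaGCCaG
Cacna1i, second probe, chr15:80225995-80226054, 73.3% G and C: aGGCaCaGCtGGCCtCCGGCttCGGCtCCt
Cacna2d2, first probe, chr9:107431245-107431304, 55.0% G and C: tGtCaGCtGtGtCCtGtGGGGGCGtGtGtG
Cacna2d2, second probe, chr9:107431615-107431674, 21.7% G and C: tattttCaaatGGtttattaCaGaaGatCa
Cacng7, first probe, chr7:3367751-3367810, 36.7% G and C: GGGGGGCCtGGCtCtGttatttaCCGtGta
Cacng7, second probe, chr7:3366442-3366501, 51.7% G and C: GaCatCtCtaGCGaCGtCtCCattCaGatG
Cacna1h, first probe, chr17:25511235-25511294, 41.7% G and C: CaaaGCtaaGGGGaGGGGaGGGGCaaaGCa
Cacna1h, second probe, chr17:25568825-25568884, 28.3% G and C: tCtCtaCCttGtGtGtttaaCtGtataaat
Cacna1h, last probe, chr17:25569818-25569877, 63.3% G and C: CttCttCtGCCtCGGGCaaaCCaCGCGGCC

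The female 20 mg array labelled replicate 2 stood apart from the rest before any channel was considered. On it 23.3% of all probes were well above background, a flag of the image software, against 51.1% to 71.9% on the other 5 arrays, and its mean rank correlation with them was 0.658 against 0.861 to 0.889. Its sex-linked signals went against the label in part. Xist, the transcript that silences an X chromosome in female cells, was not well above background there with either of its probes, at 7.27 and 5.81, which lay above the male arrays (3.32 to 3.92) and below the other female arrays (9.67 and 10.84, and 7.54 and 6.92). The Y-linked gene Ddx3y was not well above background either, at 7.71 against 9.41 to 10.46 on the male arrays and 3.32 on the other female arrays. The Y-linked gene Eif2s3y had a log2 value of 10.12, against 3.32 at female 2 mg, 4.04 on female 20 mg replicate 1 and 10.62 to 11.99 on the male arrays. Slide 1 held both 2 mg arrays and female 20 mg replicate 1, slide 2 held male 20 mg replicate 1 and the female 20 mg array labelled replicate 2, and slide 3 held male 20 mg replicate 2. In males the dose and the slide therefore cannot be told apart.

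Most channel genes were detected. With the probe of each gene that was well above background on most arrays, 38 of the 40 genes were well above background on the female 2 mg array and 38 on female 20 mg replicate 1. The count was 35 at male 2 mg, 32 on male 20 mg replicate 1, 35 on male 20 mg replicate 2 and 18 on the female 20 mg array labelled replicate 2. On all 5 brighter arrays 31 genes (77.5%) were detected, against 54.8% of all gene symbols. Only Scn7a, an atypical channel of glia and peripheral tissue, was detected on no array. In pooled tissue, fewer cells of a type and less RNA per cell cannot be told apart.

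Under the rule of the study's methods, a probe was counted as changed where its quantile normalized signal varied over the 6 arrays more than that of the median probe and where the mean at 20 mg was 2.5-fold or more away from the value at 2 mg in a sex. The rule has no measure of replicate error. It kept 24 of the 63 channel probes (38.1%), against 27.4% of all probes. In males it gave 2 lower channel probes, the second probe of Cacna2d2 and the probe of Cacng6, which is 8.33% of the channel probes kept against 7.92% of all probes kept. It gave 1 higher channel probe in males, Cacna1c, or 4.17% against 5.18%. In females it gave 14 lower channel probes (58.3%, against 37.6% of all probes kept) and 4 higher ones (16.7%, against 31.6%). Among genes well above background on both 2 mg arrays, with 1 probe a gene, the rule kept 12 channel genes (34.3%) and 7458 symbols (30.8%). Of these 12 channel genes 6 were lower in females, against 50.5% of the symbols, and 2 were higher, against 12.6%. The larger share of lower channel probes was thus not seen among these detected genes. Of all probes counted in females 54.4% were lower, against 17.0% with a 75th percentile shift, 74.4% with the floor set before normalization and 71.1% in the deposited table. Channel probes lower in females numbered 1 of 3 kept with the shift, against 14.6% of all probes kept. With normexp background correction they numbered 4 of 27 kept, against 13.4%. In males, leaving out replicate 1 gave 5 higher channel probes of 23 kept, against 15.9% of all probes kept. Leaving out replicate 2 gave 4 lower and 4 higher of 22 kept, against 18.3% and 9.99%. Leaving out female replicate 1 gave 0 higher of 22 kept, against 4.67%.

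The female counts came from the female 20 mg array labelled replicate 2. All 18 channel probes counted in females were past 2.5-fold in that direction on this array, and 1 of the 18 was past it on female 20 mg replicate 1. On replicate 1 the median size of their difference was 0.21 (log2), against 3.52 on the array labelled replicate 2, and 8 of the 18 had the same direction on both. Only 2 of the 18 were well above background on the array labelled replicate 2. When that array was left out and the remaining 5 were normalized again, 3 of 15 channel probes kept were lower in females, against 9.86% of all probes kept. When replicate 1 was left out instead, 15 of 22 were, against 52.0%.

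In the limma fit of the 4 groups, which takes the replicate error from the pairs of arrays at 20 mg, 0 of the 55 channel probes tested passed the threshold of 0.05 after Benjamini-Hochberg adjustment. This held for the contrast of doses within each sex, for the mean of the sexes and for the interaction. Of all 37211 probes a share of 0 was called for every contrast. Without adjustment 0 channel probes had a p under 0.05, and of all probes 74 did in males, 161 in females, 145 over both sexes and 51 for the interaction. The adjusted p of every channel probe in limma was 1 for the dose. The pools came from separate pups. The p-values rest on the spread within the 20 mg pairs, drawn toward a prior shared by probes of like signal. The standard error of a probe can therefore far exceed its own spread. For Cacnb1 it was 2.14, where the SD at 20 mg was 0.06 in males and 0.28 in females. The arrays of each 20 mg pair lay on different slides, so this spread is not one between pools alone. The error of the fit was wide, with a prior standard deviation of 1.32 on the log2 scale, which is the size of a 2.5-fold difference. A p that misses the threshold does not show that the doses gave equal levels.

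**Figure D1:**
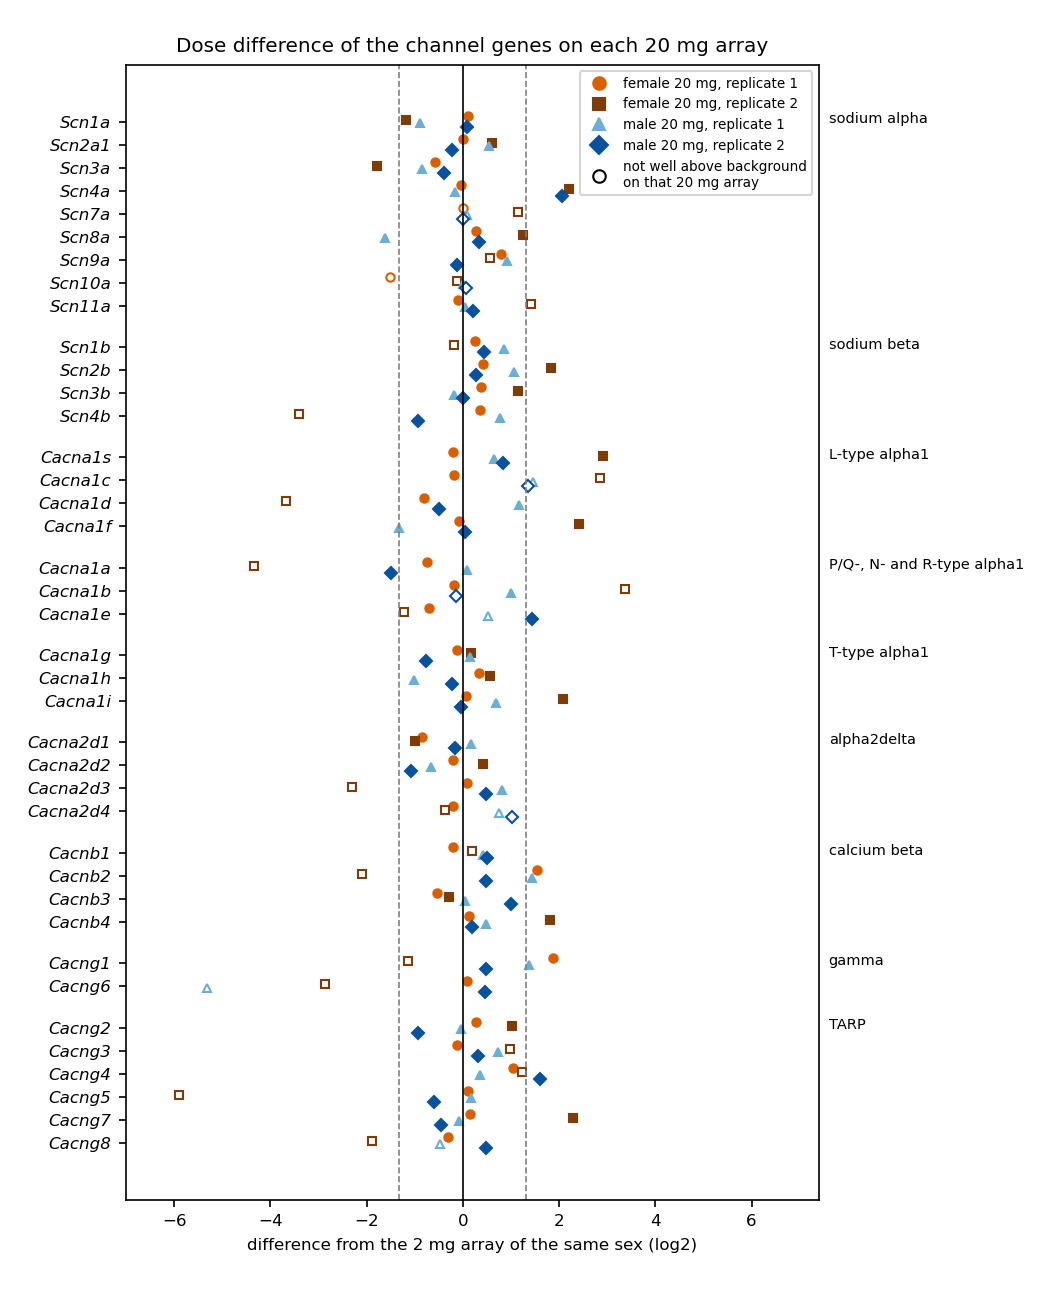
Difference between each 20 mg array and the 2 mg array of the same sex (log2, horizontal axis) for the probe that stands for each channel gene reported here, grouped by subunit class. Each point is 1 array, open points were not well above background on that 20 mg array, and dashed lines mark 2.5-fold; on the female 20 mg array labelled replicate 2 the points run from -5.91 (Cacng5) to 3.37 (Cacna1b), while on female 20 mg replicate 1 all but 3 lie between the lines.

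Taken array by array, the channel genes lay close to their 2 mg level on slide 1 and far from it on the female 20 mg array labelled replicate 2. On female 20 mg replicate 1, 1 gene was past 2.5-fold lower and 2 were past it higher, or 7.5% of the 40 genes against 3.61% of all gene symbols. On the array labelled replicate 2, 10 were lower and 10 higher, 50% against 47.8%. On male 20 mg replicate 1, 4 were lower and 3 higher, 17.5% against 15.6%, and on male 20 mg replicate 2, 1 was lower and 5 higher, 15.0% against 14.1%. The shares of the channel genes were near those of all symbols on 3 of the 4 arrays, and on female 20 mg replicate 1 they rest on 3 genes.

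Within each sex, the 20 mg replicates lay farther apart than either lay from the 2 mg array. The median absolute difference over the 40 genes was 0.21 (log2) between the 2 mg arrays of the sexes and 0.23 between female 2 mg and female 20 mg replicate 1, all on slide 1. It was 0.67 between male 2 mg and male 20 mg replicate 1, 0.47 between male 2 mg and male 20 mg replicate 2, and 0.79 between these male replicates of the same dose. Between the female replicates at 20 mg it was 1.40, close to the 1.33 between female 2 mg and the array labelled replicate 2. Over all gene symbols these female distances were 1.27 and 1.24. In 22 of the 40 genes in males and 25 in females the SD of the 20 mg pair exceeded the dose difference. The median difference over the 40 genes was 0.15 in males and 0.21 in females, and over all gene symbols, undetected ones at the floor included, it was 0 in each sex. For genes well above background on both 2 mg arrays it was 0.13 in males and 0.31 in females over 35 channel genes, and -0.08 and -0.21 over 24185 symbols. The female median was -0.035 when all probes of a gene were averaged and 0.71 with the 75th percentile shift.

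With the probe that stands for each gene, 1 channel gene on all 4 arrays at 20 mg was lower than on the 2 mg array of its sex, Scn3a, and 3 were higher, Scn2b, Cacnb4 and Cacng4. Among all gene symbols 1845 were lower and 1438 were higher on all 4. Among the other probes, that of Scn1a, the last of Cacna1h and the second of Cacna1s were higher on all 4. The second of Cacna2d2 was lower on all 4, while the other 4 Scn3a probes had no common direction. These Scn1a, Cacna1h, Cacna1s and Cacna2d2 probes were not well above background on the female 20 mg array labelled replicate 2. For the Cacna1h probe the difference on female 20 mg replicate 1 was 0.005. The Cacna1s probe was well above background on female 20 mg replicate 1 alone. Its signal at 2 mg was the floor value of 3.32 in females and in males.

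Among the sodium channel pores, Scn3a had log2 signals of 13.27 on the female 2 mg array, 12.68 on female 20 mg replicate 1, 11.48 on the array labelled replicate 2, 13.55 at male 2 mg, 12.70 on male 20 mg replicate 1 and 13.15 on male 20 mg replicate 2. Its 20 mg arrays were lower than the single 2 mg array in each sex. Of the 40 channel genes, 10 were lower and 11 higher on both 20 mg arrays in females, and 5 were lower and 15 higher in males. These counts were not made over all gene symbols, and both differences of a sex share 1 array at 2 mg. They are therefore not read as a trait of the channel genes. The Scn3a difference was -1.19 in females, where the 20 mg mean was 12.08 ± 0.85 (SD, n = 2), and -0.62 in males, where it was 12.93 ± 0.32 (SD, n = 2), with a limma standard error of 0.97 and an adjusted p of 1 in both. The other 4 Scn3a probes gave directions that differed between the arrays, and the female difference of the 5 probes ran from -1.87 to 0.03.

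Scn2a1, the pore that serves immature axons, had 13.02, 13.03 and 13.64 on the female arrays in the same order and 12.80, 13.34 and 12.58 on the male arrays. The 20 mg arrays lay on both sides of the 2 mg array in males. The difference was 0.31 in females and 0.16 in males with a limma standard error of 0.95 and an adjusted p of 1. A further probe of Scn2a1 passed the fold rule as lower in females with -1.34, of which 0.18 was measured on replicate 1 and -2.87, without passing the background flag, on the array labelled replicate 2.

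Scn1a, the pore whose loss in inhibitory neurons causes a severe childhood epilepsy, had 11.45, 11.55 and 10.27 on the female arrays and 11.55, 10.67 and 11.64 on the male arrays. It lay near its 2 mg level on female replicate 1 and male replicate 2, with 0.10 and 0.08, and lower on the other arrays. The other Scn1a probe was higher on all 4 arrays, by 0.31 to 0.71, and was not well above background on the female 20 mg array labelled replicate 2. Scn8a, the main pore of adult nodes and axon initial segments, had differences of 0.26, 1.24, -1.62 and 0.34 on female replicates 1 and 2 and male replicates 1 and 2.

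Among the sodium channel beta subunits, Scn2b had 9.32, 9.74 and 11.15 in females and 9.13, 10.19 and 9.39 in males, so each 20 mg array was above its 2 mg array. The differences were 1.12 in females and 0.66 in males, with a limma standard error of 1.33 and an adjusted p of 1. Scn3b had 12.17, 12.54 and 13.31 in females and 12.32, 12.13 and 12.32 in males. Scn4b, the beta subunit linked to resurgent current in Purkinje cells, passed the fold rule as lower in females with -1.52, from 0.36 on replicate 1 and -3.40 on the array labelled replicate 2, where it lay at the floor of 3.32.

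Among the pores of the presynaptic calcium channels, Cacna1a was lower in females at 20 mg with both of its probes. The first probe had 11.43 on the female 2 mg array, 10.68 on replicate 1 and 7.09 on the array labelled replicate 2 (not well above background there), and 11.27, 11.36 and 9.78 on the male arrays. The second probe had 9.99, 8.32 and 4.42 in females, again not well above background on the array labelled replicate 2, and 9.42, 9.26 and 11.45 in males. Both female arrays at 20 mg lay below the single 2 mg array for either probe, and both probes passed the fold rule, with differences of -2.54 and -3.62. Of the 40 channel genes, 10 were lower and 11 higher on both female arrays at 20 mg, a count not made over all gene symbols. The second Cacna1a probe was past 2.5-fold on each of these arrays, with -1.68 and -5.57, and is the channel probe that met this on both female arrays. In males the probes pointed in opposite directions on replicate 2, by -1.49 and 2.04, and neither passed the fold rule. In females limma gave standard errors of 1.42 and 1.78 and an adjusted p of 1 for both probes. With slide 1 alone the female difference of the first probe was -0.75.

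Cacna1b, the N-type pore, had differences of -0.17 and 3.37 on the female arrays and passed the fold rule as higher in females, and it was not well above background on the array labelled replicate 2. Cacna1e, the R-type pore, had differences of -0.70 and -1.23 on the female arrays and 0.52 and 1.43 on the male arrays, but it was not well above background at male 2 mg, on male 20 mg replicate 1 or on the female 20 mg array labelled replicate 2.

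Among the L-type pores, which couple depolarization to transcription and to contraction, Cacna1d had 7.72, 6.91 and 4.05 on the female arrays and 7.53, 8.69 and 7.02 on the male arrays. Both female arrays at 20 mg were lower, the array labelled replicate 2 without being well above background, and the male arrays lay on both sides of 2 mg. It passed the fold rule in females with -2.24, with an SD of 2.02 at 20 mg, a limma standard error of 2.21 and an adjusted p of 1. The other Cacna1d probe had a female difference of 0.00, from 0.91 and -0.90. Cacna1c was past 2.5-fold higher on both male arrays, by 1.46 and 1.34, and was counted by the fold rule in both sexes, but its only probe was well above background on female 20 mg replicate 1 alone, so no fold is given for males.

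The T-type pores, which open near the resting potential and support burst firing, were well above background on all 6 arrays with 3 of 3 genes. Cacna1g had 11.01, 10.88 and 11.18 in females and 11.36, 11.51 and 10.60 in males, and the spread of its 4 differences was 0.93. Cacna1h had 11.39, 11.73 and 11.95 in females and 11.44, 10.42 and 11.21 in males, with its first probe, lower on both male and higher on both female arrays at 20 mg. These male and female differences of -0.63 and 0.45 had a limma standard error of 1.07, and the interaction was not called. The last Cacna1h probe was higher on all 4 arrays, with 0.99 in males and 1.09 in females. Its female differences were 0.005 on replicate 1 and 2.18 on the array labelled replicate 2, where the probe was not well above background. Cacna1i had 10.43, 10.50 and 12.50 in females and 10.22, 10.90 and 10.17 in males. Its second probe, the one richest in G and C of the 63, had 7.08, 6.81 and 3.32 in females and passed the fold rule as lower with -2.01, where the first probe had 1.07.

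**Figure D2:**
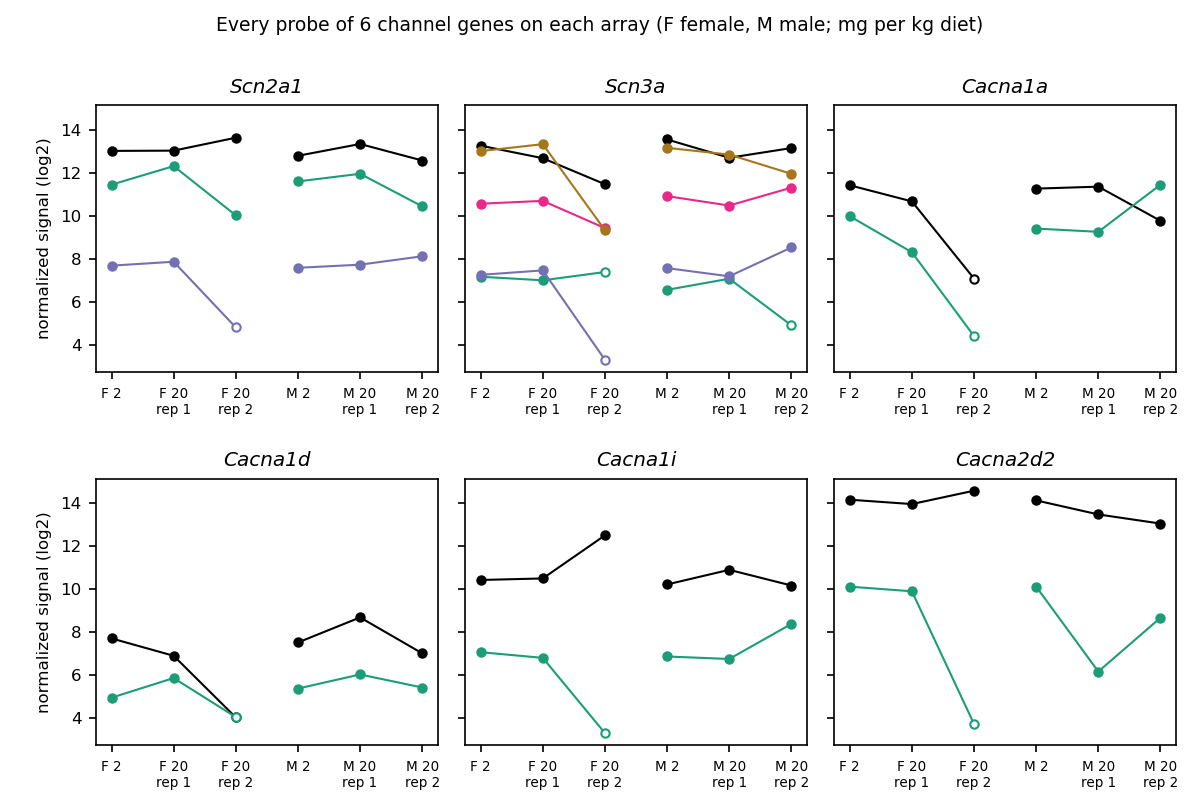
Normalized signal (log2, vertical axis) of every probe of Scn2a1, Scn3a, Cacna1a, Cacna1d, Cacna1i and Cacna2d2 on the 6 arrays, with 1 line a probe for each sex and open points where the probe was not well above background. For Cacna2d2 the lines stay level between female 2 mg and female 20 mg replicate 1 (-0.20 and -0.22) and part on the female 20 mg array labelled replicate 2 (0.42 and -6.38).

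Among the auxiliary calcium channel subunits, the alpha2delta gene Cacna2d2, whose loss gives the ducky mouse with cerebellar ataxia, had 14.16, 13.96 and 14.58 on the female arrays with its first probe and 14.13, 13.47 and 13.05 on the male arrays. Both male arrays at 20 mg were lower, by 0.65 and 1.08, and the female arrays lay on both sides. Its second probe had 10.12, 9.91 and 3.74 in females and 10.12, 6.18 and 8.68 in males, lower on all 4 arrays and past 2.5-fold on both male arrays, by -3.94 and -1.44. The value of 3.74 was not well above background. It passed the fold rule in both sexes, with -2.69 in males and -3.30 in females, and in limma over both sexes its difference was -3.00 with a standard error of 1.55 and an adjusted p of 1. This probe is 21.7% G and C, with 1 channel probe lower in this content. Cacna2d1, a binding site of gabapentin, had 12.57, 11.73 and 11.58 in females and 12.16, 12.34 and 11.99 in males. Its female 20 mg mean of 11.66 ± 0.10 (SD, n = 2) was 0.91 below the 2 mg array, while its other probe had 0.12 and -3.64 on the female arrays.

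The beta subunits Cacnb1 to Cacnb4, which bring the pore to the membrane, were well above background on all 5 brighter arrays, and 1 of the 4 was kept by the filter and 0 were counted with the probe that stands for the gene. Cacnb4, the beta subunit mutated in the lethargic mouse, had 9.35, 9.48 and 11.16 in females and 9.17, 9.65 and 9.37 in males, higher on each 20 mg array by 0.14 to 1.81. Cacnb3 had 10.64, 10.12 and 10.37 in females and 10.71, 10.74 and 11.70 in males. Cacnb2, with its first probe, was past 2.5-fold higher on replicate 1 of each sex, by 1.53 in females and 1.43 in males. It was -2.09 on the female 20 mg array labelled replicate 2, where it lay at the floor. Its second probe, also well above background on the 5 brighter arrays, had 0.67 in females and -0.12 in males on replicate 1. The last Cacnb2 probe was well above background on no array.

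Of the gamma subunits, Cacng6 had 8.90, 8.98 and 6.03 in females and 9.10, 3.79 and 9.56 in males. The arrays of slide 2 were low and not well above background, and the other 4 lay between 8.90 and 9.56. It passed the fold rule as lower in both sexes, with -1.39 in females and -2.42 in males, and the SD at 20 mg was 2.09 and 4.08. Without male 20 mg replicate 1 the male difference was 0.46, and without the female 20 mg array labelled replicate 2 the female difference was 0.085. Of the 6 TARPs, the filter kept 1 with the probe that stands for the gene. This was Cacng5, counted as lower in females, as were 39.7% of all gene symbols kept, with -2.90, from 0.11 on replicate 1 and -5.91 at the floor on the array labelled replicate 2. Cacng2, the stargazin gene of the stargazer mouse, had 11.79, 12.05 and 12.81 in females and 12.08, 12.04 and 11.14 in males. Cacng4 had 7.44, 8.49 and 8.66 in females and 7.90, 8.26 and 9.51 in males, higher on each 20 mg array (not well above background on the female array labelled replicate 2), with a difference over both sexes of 1.06, a limma standard error of 1.22 and an adjusted p of 1.

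Probes of the same gene differed from each other on every array. Over the 16 genes with more than 1 probe, the median range between the probes of a gene was 0.57 (log2) on female 20 mg replicate 1, 2.27 on the array labelled replicate 2, 1.16 on male 20 mg replicate 1 and 0.84 on male 20 mg replicate 2. Over all gene symbols with more than 1 probe it was 0.50, 2.47, 0.98 and 0.83. On the female 20 mg array labelled replicate 2 the probes of 11 of the 16 genes (68.8%, against 72.7% of all such symbols) lay over 2.5-fold apart, and those of 3 genes were past 2.5-fold in opposite directions. Cacng7, a TARP, had 13.04, 13.19 and 15.34 in females and 12.96, 12.88 and 12.51 in males with its first probe. This probe was 2.30 higher on the array labelled replicate 2 and the second 2.55 lower, and on replicate 1 they gave 0.15 and -0.16.

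**Figure D3:**
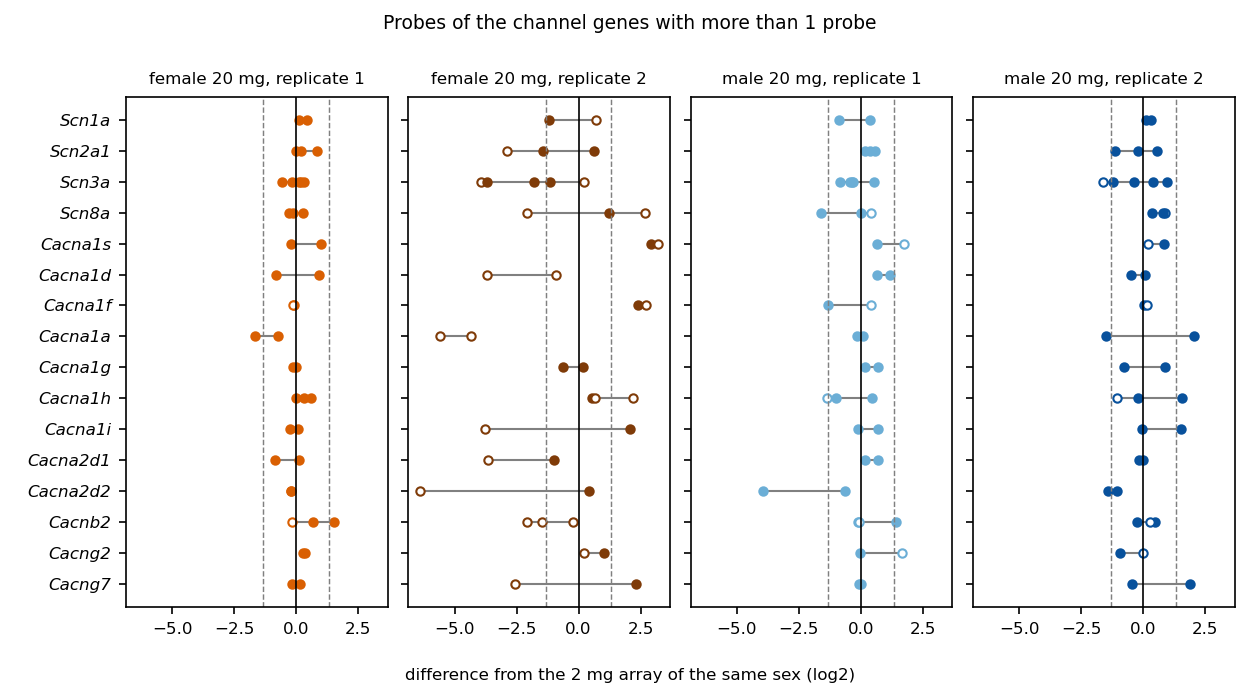
Difference from the 2 mg array of the same sex (log2, horizontal axis) for each probe of the 16 channel genes with more than 1 probe, with a panel for each 20 mg array, grey lines joining the probes of a gene, dashed lines at 2.5-fold and open points where the probe was not well above background. The median range between probes was 0.57 on female 20 mg replicate 1 and 2.27 on the female 20 mg array labelled replicate 2.

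On male 20 mg replicate 2, the array of slide 3, the difference from male 2 mg followed the G and C content of the probe. Over the 50 channel probes well above background on both arrays the rank correlation was 0.52, and over 30466 such probes of the whole array it was also 0.52. The channel probes under 40% G and C had a median difference of -0.31, with 10 of 14 below 0, and those of 50% and over had a median of 0.80, with 16 of 19 above 0. The same correlation was 0.18 on male 20 mg replicate 1 (49 probes), -0.09 on female 20 mg replicate 1 (55 probes) and 0.26 on the female 20 mg array labelled replicate 2 (22 probes). All points of an array share its hybridization, and several probes share a gene, so these are descriptions without a p.

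Within genes the same order appeared in part. In 11 of 15 genes whose probes differ in G and C content, the probe richest in G and C had the higher difference on male 20 mg replicate 2. The count was 9 of 15 on male replicate 1 and 7 of 15 on each female array. Unlike the correlations, these counts include probes not well above background, and they were not made over all gene symbols. The 3 Cacna1h probes printed above, of 28.3%, 41.7% and 63.3% G and C, had -1.05, -0.23 and 1.55, the first of these without being well above background. The Cacng7 probes with 36.7% and 51.7% had -0.45 and 1.89, and the Cacna1i probes with 50% and 73.3% had -0.05 and 1.51. Cacna1a went the other way, with 2.04 for the probe of 35.0% and -1.49 for that of 45.0%. The part of base composition in the male dose differences was not tested.

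**Figure D4:**
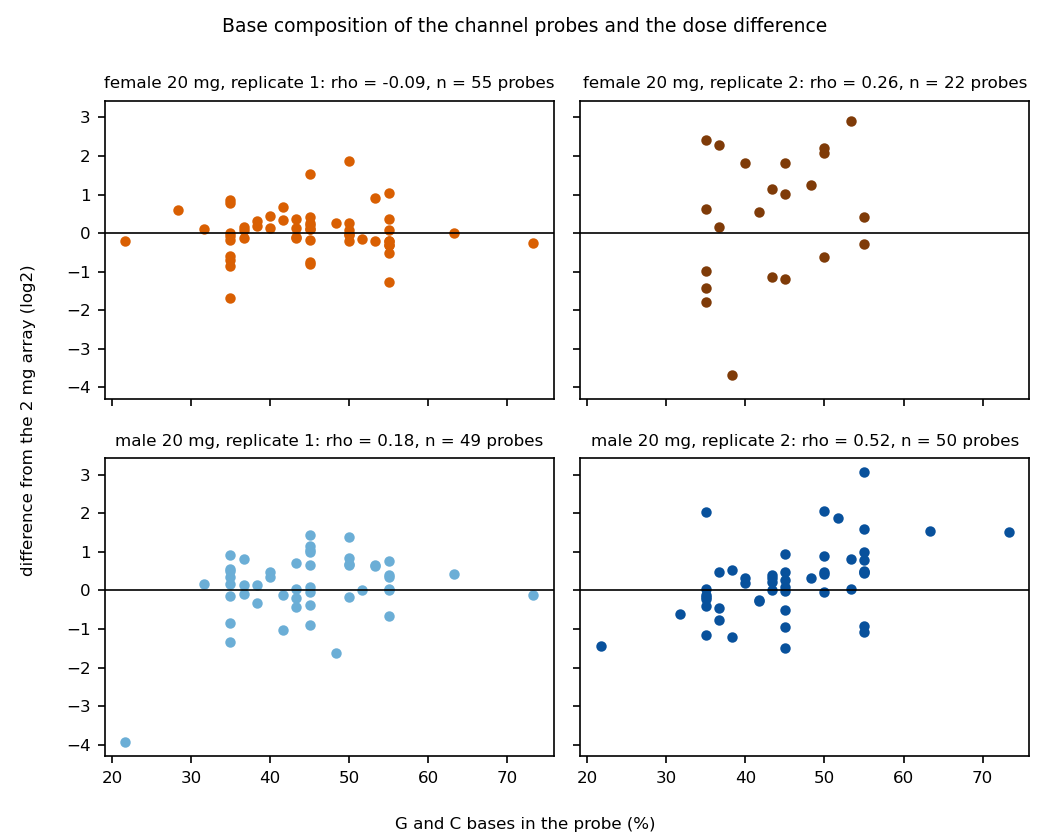
G and C content of the channel probes (percent, horizontal axis) against the difference from the 2 mg array of the same sex (log2, vertical axis), with a panel for each 20 mg array and 1 point for each probe well above background on both arrays. The points climb with G and C content on male 20 mg replicate 2 (rank correlation 0.52).

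Subunits known from other tissues served as a check on the tissue. Of the skeletal muscle subunits, Scn4a had 6.85, 6.81 and 9.05 in females and 6.72, 6.56 and 8.79 in males and was well above background on all 6 arrays, as was Cacna1s with its first probe at 6.98, 6.78, 9.89, 6.46, 7.10 and 7.28 in the same order. Cacng1, the muscle gamma subunit, was well above background on the 5 brighter arrays, with 4.47 and 6.33 in females and 4.89, 6.27 and 5.36 in males. Of 10 skeletal muscle markers 5 were well above background on the 5 brighter arrays, namely Myh8 (8.21 to 9.31 over all arrays), Tnni2 (6.83 to 10.02), Acta1, Myh3 and Tnnt3, while Ckm, Mylpf and Des were on no array. By the fold rule Cacna1s was counted as higher in females with 1.35, through 2.90 on the array labelled replicate 2. The part of muscle in these signals was not tested. The muscle list summed to a normalized signal of 923 at female 2 mg, 842 and 1870 at female 20 mg, 912 at male 2 mg and 1020 and 976 at male 20 mg.

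Of the pores of pain-sensing neurons, Scn10a was well above background on the female 2 mg array alone and Scn11a on the 5 brighter arrays at 7.27 to 7.49, and of the 6 ganglion markers Prph was on all 6 arrays (8.72 to 10.67), Isl1 and P2rx3 on 5 and Prrxl1 on none. Scn10a had 4.99, 3.48 and 4.87 in females and 3.32, 3.32 and 3.38 in males. Scn11a had 8.81 on the female 20 mg array labelled replicate 2, not well above background. The ganglion markers summed to a normalized signal of 1360 at female 2 mg, 1380 and 2080 at female 20 mg, 642 at male 2 mg and 1660 and 1410 at male 20 mg, so both male arrays at 20 mg lay above male 2 mg. The retinal pore Cacna1f had 7.01, 6.93 and 9.42 in females and 7.24, 5.91 and 7.27 in males with its first probe, while its second probe was well above background on no array. Of the 6 retinal markers Nrl was well above background on all 6 arrays (6.70 to 9.98), Rcvrn and Pde6b on 1 each and 3, among them Crx and Cabp4, on none. The 6 retinal markers summed to 234 to 1140 in females and 172 to 269 in males. The part of ganglion or retinal tissue in these signals was not tested.

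Of 12 cerebellar markers, 10 were well above background on the 5 brighter arrays, and so were 6 of 6 neuronal and 6 of 10 forebrain markers. The forebrain markers differed between pools. The forebrain list summed to a normalized signal of 10600 at female 2 mg, 21100 and 5210 at female 20 mg, 7150 at male 2 mg and 13300 and 4610 at male 20 mg, and 0 of its 10 genes were undetected on every array. On replicate 1 of each sex its median difference was 0.77 in females and 1.31 in males, where the channel genes had -0.02 and 0.17. The part of forebrain tissue in the channel differences was not tested.

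The genes that anchor, modify or bind these channels were counted as well, from a list of 33 that includes ankyrins, FGF homologous factors, the sodium leak channel complex and the proteins that tie calcium channels to vesicles. All 33 were on the array, and 17 were well above background on all 6 arrays. The filter kept 9 of them (27.3%, against 27.4% of all probes). In males 1 passed the fold rule as lower (Catsper4, the sperm calcium channel, with -2.65), or 11.1% of the partners kept against 7.92% of all probes kept, and 0 as higher. In females 4 were lower (44.4% against 37.6%) and 3 higher (33.3% against 31.6%), shares near those of all probes. The lower ones were Nalcn, the sodium leak channel, with -2.77, Rem2 with -2.16, Stac with -1.35 and Rims1, an organizer of the active zone, with -1.74. Stac3, Catsper1 and Rimbp2 were counted as higher in females, the latter pair without being well above background on any array. None of the 4 lower genes passed the background flag on the female 20 mg array labelled replicate 2. Over the whole list the median difference was 0.03 in females and 0 in males.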

How the data were processed

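Agilent Feature Extraction 10.7.3.1 gave the authors the intensity of each spot on the scans, with background subtracted and no scaling between arrays. The deposited log2 values had been quantile normalized and floored in BRB-ArrayTools and served as an alternative. Here outlier-flagged spots were removed, spots of a probe averaged, log2 signals quantile normalized over 6 arrays and values under 10 set to 10 (log2 of 3.32, the floor). The fold rule kept probes with a variation p of at most 0.05 and at most 50% missing values. limma 3.58.1 (R 4.3.3) fitted 4 group means with a trended empirical Bayes step and 2 residual degrees of freedom over probes well above background on at least 2 arrays; a lone 2 mg array is assumed to vary like the 20 mg pairs. Both steps were tested on simulated data. The check they had to pass used less noise than these arrays show, so it does not tell what limma could detect here. The probe well above background on most arrays, then the brightest, stands for its gene. Named were genes listed in advance, those past 2.5-fold on both 20 mg arrays of a sex or counted in both sexes, and up to 3 steady genes per class; other genes were chosen after their values were seen. The members and lists were chosen with earlier results of these data known. Accessions of the probes were looked up in RefSeq, and 38 of 40 genes had 1 that matched. Precision is limited by the 6 arrays. Values of some genes in the lists are not reported here by name, though counts and sums include them.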

Additional observations from a re-analysis of the deposited data

How the results depend on the processing

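The limma counts stayed at 0 channel probes under all 41 alternatives, including the slide or the scan day as a block, array weights, and an additive fit on 5 arrays that was chosen after seeing the data. The smallest adjusted p of a channel probe was 0.584, without female 20 mg replicate 1. Leaving out each 20 mg array in turn, lower channel probes by the fold rule ranged from 3 to 15 in females (3 without the array labelled replicate 2) and from 2 to 4 in males (4 without male replicate 2), and higher ones from 2 (without male replicate 1) to 7 (without female replicate 1) in females and from 0 (without female replicate 1) to 5 (without male replicate 1) in males. Of all probes kept with an array left out, 9.86% to 52.0% were lower in females and 7.13% to 18.3% in males. The shares of higher ones were 6.77% to 40.1% in females and 4.67% to 15.9% in males. Scaling by the 75th percentile raised the median over all probes by 1.04 in females. It gave 1 lower and 0 higher channel probe in females and 0 higher in males, against 14.6%, 70.8% and 17.5% of all probes kept. Normexp gave 4 lower and 0 higher in females and 1 lower and 0 higher in males, against 13.4%, 8.19%, 3.71% and 1.2%. The deposited table gave 1 higher in females and 0 in males, against 16.3% and 5.16% of all probes kept. The floor before normalization gave 2 and 0, against 14.6% and 4.08%, and the limit to detected probes 2 and 0. The median over channel genes in males was 0.30 with the deposited table, 0.18 with the floor first, 0.26 over all probes of a gene, 0.19 with normexp and 0.068 with the shift, and in females -0.035 over all probes and 0.71 with the shift. With an array left out it ranged from 0.16 to 0.21 in males. Of 475 recomputed differences of the 25 named genes 439 moved by less than the SD of the 20 mg pair, 29 moved by more and 7 of counted genes changed sign. Leaving out 1 array of a pair moves its mean by less than that SD, apart from the new normalization, so the 439 do not measure stability. Cacna1a in females went from -2.54 to -0.71 without the array labelled replicate 2 and to -4.30 without replicate 1. Both moves were under its SD of 2.53. On slide 1 alone Cacna1c was -0.18, Cacna1s -0.20 and Cacng6 0.085 in females. Without the female 20 mg array labelled replicate 2 they were -0.21, -0.22 and 0.085, and without female replicate 1 they were 2.76, 2.86 and -2.80. Cacng6 in males was 0.46 without male replicate 1 and -5.31 without male replicate 2. The correlation with G and C content on male 20 mg replicate 2 was 0.50 to 0.53 under 4 normalizations chosen after seeing the data. The cause of these changes was not tested. No paired analysis was possible because each 2 mg group is 1 array, so the doses share fewer than 2 replicate numbers.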
